A study of Mus musculus with 6 samples.

Results

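The mitochondrial carrier family moves metabolites, nucleotides, cofactors and ions across the inner mitochondrial membrane, and it includes the uncoupling proteins. Its members were taken as the protein-coding mouse genes with an Slc25a symbol together with Ucp1, Ucp2 and Ucp3. Slc25a1, Slc25a13, Slc25a15 and Slc25a20, which belong to citrate, aspartate, ornithine and carnitine transport, were left out. This gave 46 genes of the 56691 in the deposited table. Of these, 30 were among the 10756 genes that averaged 1 FPKM or more (fragments per kilobase of exon, per 1000000 counts) and were tested, and 16 lay below that level.

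The livers came from wild-type C57BL/6J females, all of them pregnant. The PF group (n = 3) was given a high-fructose diet (HFrD) from mid to late gestation, and the PC group (n = 3) stayed on normal chow (NC), so that diet was the only labelled difference and pregnancy was shared. Ages are not stated, and no label ties a PF library to a PC library. Poly(A) RNA was sequenced in 1 library per sample.

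Carriers of this family share a fold of repeated membrane-spanning pairs and open alternately to either face of the inner membrane. In liver they set which fuels reach the tricarboxylic acid cycle, supply the cytosol with ATP and with precursors for lipid and glucose synthesis, and bring in the cofactors that mitochondrial enzymes need. Uncoupling proteins belong to the same fold. Ucp1 lets protons back into the matrix and makes heat in brown fat, whereas the functions of Ucp2 and of its close relatives in other tissues are less settled.

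The 6 libraries held 16119145 to 19676361 counts, of which 28214 to 44231 fell on the 46 members. Levels below are FPKM scaled by library size and by the trimmed mean of M-values (TMM) factor of each library, written as TMM-scaled FPKM, with mean ± SD and n = 3 per group. The scaling matters in these libraries. With library totals alone the median log2 difference of all tested genes was 0.39 in favor of PF, and with TMM factors it was 0.02. Albumin took 7.56% to 15.8% of the counts in PF and 18.1% to 19.9% in PC, and genes of the mitochondrial chromosome took 10.0% to 15.3% and 5.03% to 9.69%. All 10 hepatocyte markers were detected, with a summed level of 40780 to 90720 in PF and 115800 to 136200 in PC. Albumin alone made up 27110 to 69460 and 86130 to 99960 of these sums. By sign, 8 of the 10 were lower in PF (background 47.8%), whereas Ttr and Cps1 were higher. Of the 8, Alb, Apoa1, Serpina1a, Trf and Ahsg were 2.26- to 2.79-fold lower without overlap (background 11.1%). DESeq2 called these 5 (adjusted p 0.000188 to 0.0341, background 2.61%), and edgeR called 0 (adjusted p 0.1818 to 0.444). Ttr was 1.73-fold higher without overlap (edgeR adjusted p = 0.254, DESeq2 adjusted p = 0.0502). With the genes of the mitochondrial chromosome and albumin left out of the fit, 0 members passed an adjusted p of 5% (background 0% of 10738 genes). Unadjusted, 3 were lower (10%, background 7.9%) and 3 were higher (10%, background 9.14%), the same counts as with those genes. The log2 fold change of Slc25a30 was −1.95 and that of Ucp2 −1.61 in either fit. Both fits used TMM factors and nearly the same genes, so their likeness does not decide how far RNA composition shaped the values. The part of the lower hepatocyte markers in the values below was not tested.

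A few carriers made up most of the family. Slc25a5, a widely expressed ADP/ATP translocase that passes ATP to the cytosol, had a mean of 171 TMM-scaled FPKM over the 6 libraries and took 29.97% of the family's summed level. Next in order came the liver-enriched Slc25a47 at 57.4, the glutathione carrier Slc25a39 at 51.9 and the phosphate carrier Slc25a3 at 43.6, and these 4 together took 56.6%. Slc25a47 and Slc25a39 overlapped in both groups, and Slc25a3 overlapped both of them in PF and lay below both in PC. Slc25a23 at 28.9 and Slc25a11 at 22.6 followed. The remaining tested members reached down to 1.02 for Slc25a26.

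**Figure D1:**
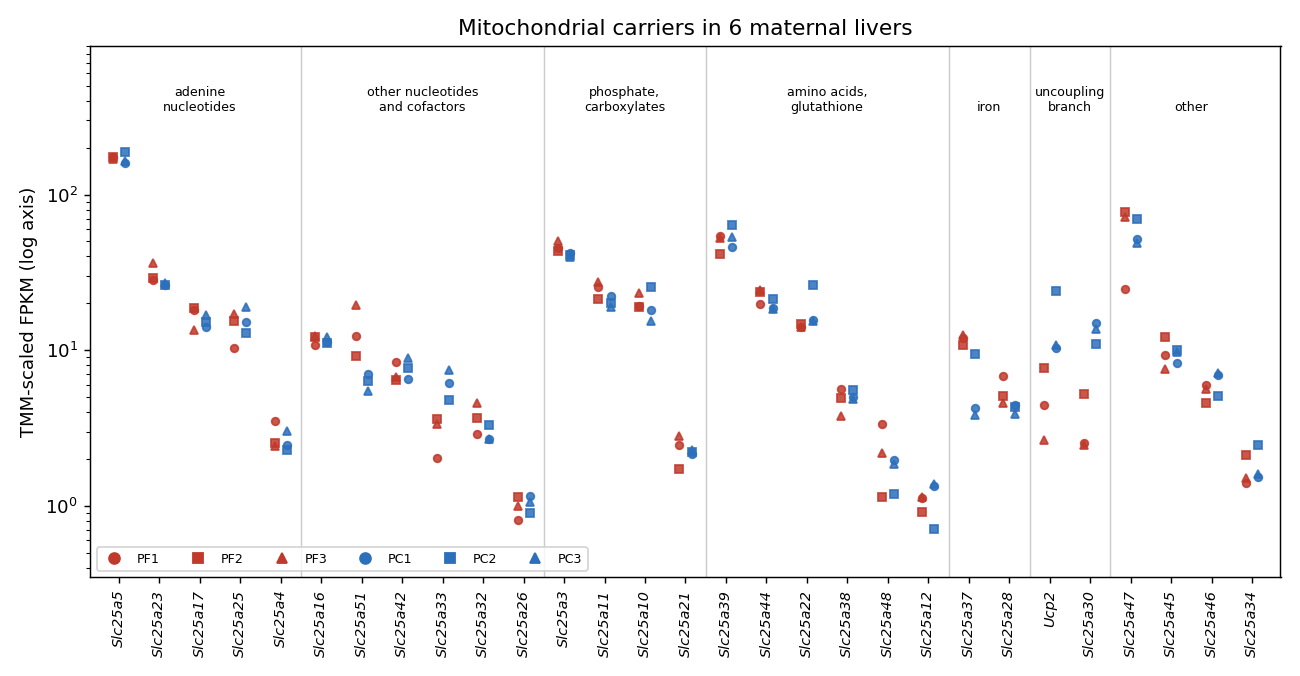
TMM-scaled FPKM (log axis) of 29 tested carriers in each of the 6 livers, grouped by what they carry, with PF in red and PC in blue and 1 symbol per library number. Slc25a5 lay between 159 and 187 in all libraries, whereas the red and blue points of Slc25a30, Ucp2, Slc25a33, Slc25a51 and Slc25a37 were apart.

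The question put to the carriers was whether their levels in pregnancy differ between HFrD and NC. Most differed little, and 19 of the 30 tested members were within 1.2-fold. In all, 6 members differed by at least 1.5-fold, among them Slc25a30, Ucp2 and Slc25a33, which were lower in PF, and Slc25a51 and Slc25a37, which were higher. The share of all tested genes within these fold bounds was not counted, so both counts describe the members without a background. With edgeR's quasi-likelihood test and adjustment over all tested genes, 0 of the 30 members passed 5% (background 0% of 10756 genes). At an unadjusted p under 0.05, 3 members were lower (10%, background 7.9%) and 3 were higher (10%, background 9.13%). With DESeq2 adjusted over all genes, 3 were lower (10%, background 2.61%) and 2 were higher (6.67%, background 1.97%). On the deposited FPKM, limma called 0 in either direction (background 0.0186% each way). That scale has no TMM factors, and the median log2 difference of all tested genes on it was 0.29 in favor of PF. The groups did not overlap for 4 members that were lower (13.3%, background 11.1%) and 6 that were higher (20%, background 11.8%).

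By the sign of the log2 fold change alone, 12 members were lower in PF (40%, background 47.8%) and 18 were higher (60%, background 52.2%). The median log2 fold change of the 30 members was 0.05, beside 0.02 for all tested genes. The median size of a difference, whatever its sign, was 0.16 on the log2 scale among the members and 0.24 among all tested genes. Because the samples are whole liver, fewer cells of a type and less RNA per cell cannot be told apart. The livers of a group are described in the study as biological replicates.

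**Figure D2:**
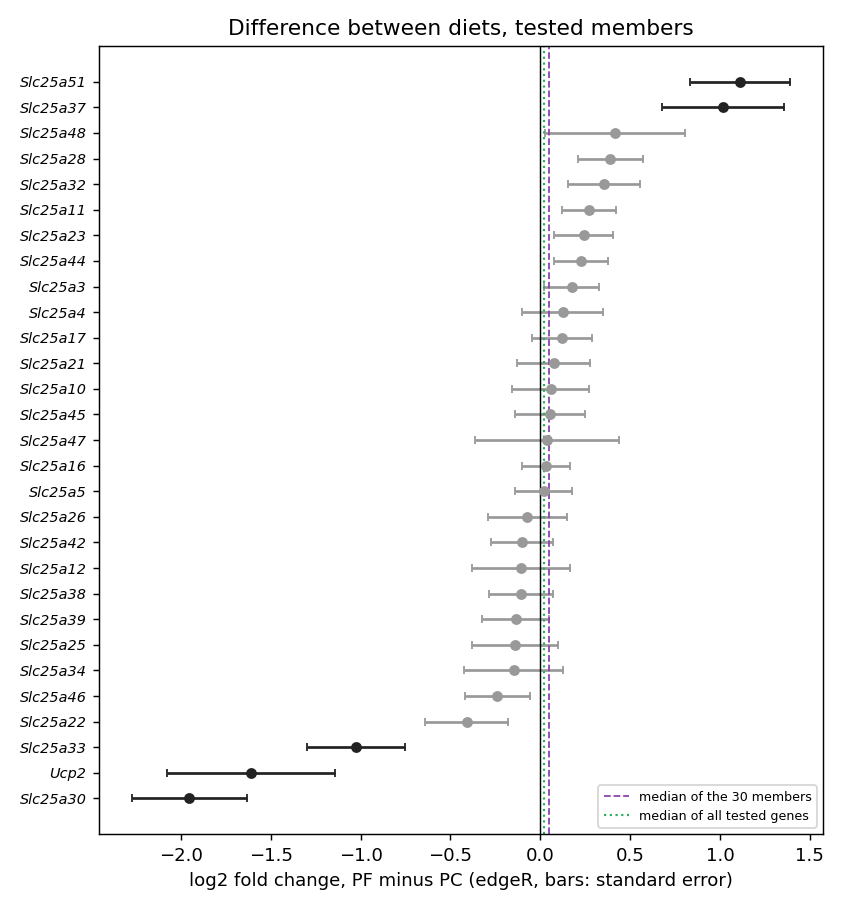
Log2 fold change (PF minus PC, edgeR with TMM factors) of 29 tested members with its standard error, in black where the unadjusted p was under 0.05. The dashed and dotted lines, at 0.05 and 0.02, mark the medians of the 30 members and of all tested genes. Slc25a30 and Ucp2 lie farthest to the left, and the 24 members in the lighter color had an unadjusted p of at least 0.05.

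The uncoupling branch held the members with the largest differences. Slc25a30, first described as a carrier of kidney mitochondria, was at 2.53, 5.27 and 2.46 TMM-scaled FPKM in PF1, PF2 and PF3. It was at 15.0, 11.0 and 13.7 in PC1, PC2 and PC3. Each PF liver lay below each PC liver, and PF2 was the nearest to the PC range. The means were 3.42 ± 1.604 in PF and 13.2 ± 2.07 in PC, 3.87-fold lower in PF with a log2 fold change of −1.95 and a standard error of 0.32. The adjusted p was 0.12 with edgeR and 2.58e-06 with DESeq2. It ranked 25 among the 10756 tested genes by edgeR p-value. Without PF2 the log2 fold change was −2.41 and the edgeR adjusted p was 0.00358. Over the 6 fits that each left out 1 library, the edgeR adjusted p went up to 0.484, the value without PC1.

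Ucp2, which is expressed in macrophages and in many other cell types and has been linked to the export of C4 metabolites, was at 4.42, 7.70 and 2.67 TMM-scaled FPKM in PF1, PF2 and PF3. It was at 10.3, 24.0 and 10.8 in PC1, PC2 and PC3. The groups were apart, and PC2 stood more than any other library outside the rest. The means were 4.93 ± 2.55 and 15.0 ± 7.76, 3.05-fold lower in PF with a log2 fold change of −1.61 and a standard error of 0.47. Adjusted over all tested genes, p was 0.185 with edgeR and 0.0116 with DESeq2. Without PC2 the log2 fold change was −1.10 (edgeR adjusted p = 0.222).

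The ratio of Ucp2 to Slc25a30 was 1.75, 1.46 and 1.09 in PF1, PF2 and PF3. It was 0.686, 2.19 and 0.788 in PC1, PC2 and PC3, so the PF livers lay within the PC range (exact permutation p = 0.5, two-sided, adjusted p = 0.667 over 4 pairs).

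Since Ucp2 is abundant in macrophages, the levels of 12 genes of Kupffer cells and other macrophages were set beside it. Their summed level was 202 to 311 TMM-scaled FPKM in PF and 219 to 320 in PC, ranges that overlapped. Of the 12, 9 were lower and 3 higher in PF, with a median log2 fold change of −0.09. The one that differed at an unadjusted p under 0.05 was Marco, a scavenger receptor of Kupffer cells. It was at 6.04, 3.98 and 3.69 in PF1, PF2 and PF3. It was at 8.001, 17.2 and 9.69 in PC1, PC2 and PC3, highest in the same library as Ucp2. The summed level of the 12 genes was 320, 219 and 255 in PC1, PC2 and PC3, lowest in PC2. An order among 3 libraries cannot decide how these genes relate to Ucp2. Clec4f, which marks Kupffer cells, had a log2 fold change of −0.01, and the part of these cells in the Ucp2 values was not tested further.

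The other members of this branch were hardly detected. Ucp1, the heat-producing protein of brown fat, had 1 and 2 counts in PF1 and PF2 and 0 in the other 4 libraries. The summed level of 6 adipocyte markers was at most 0.167 TMM-scaled FPKM. Ucp3, the form of skeletal muscle, had 2 counts in PF1, 4 in PC1 and 3 in PC2 and 0 in the others, and it overlaps Gm10603 on the opposite strand, so even these few reads are uncertain. The brain-enriched Slc25a14 was at 0.596 ± 0.0750 in PF and 0.810 ± 0.442 in PC, with 14 to 46 counts per library. Slc25a27, also known from brain, was at 0.838 ± 0.0590 and 0.677 ± 0.196. All 4 lay below the level for testing.

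**Figure D3:**
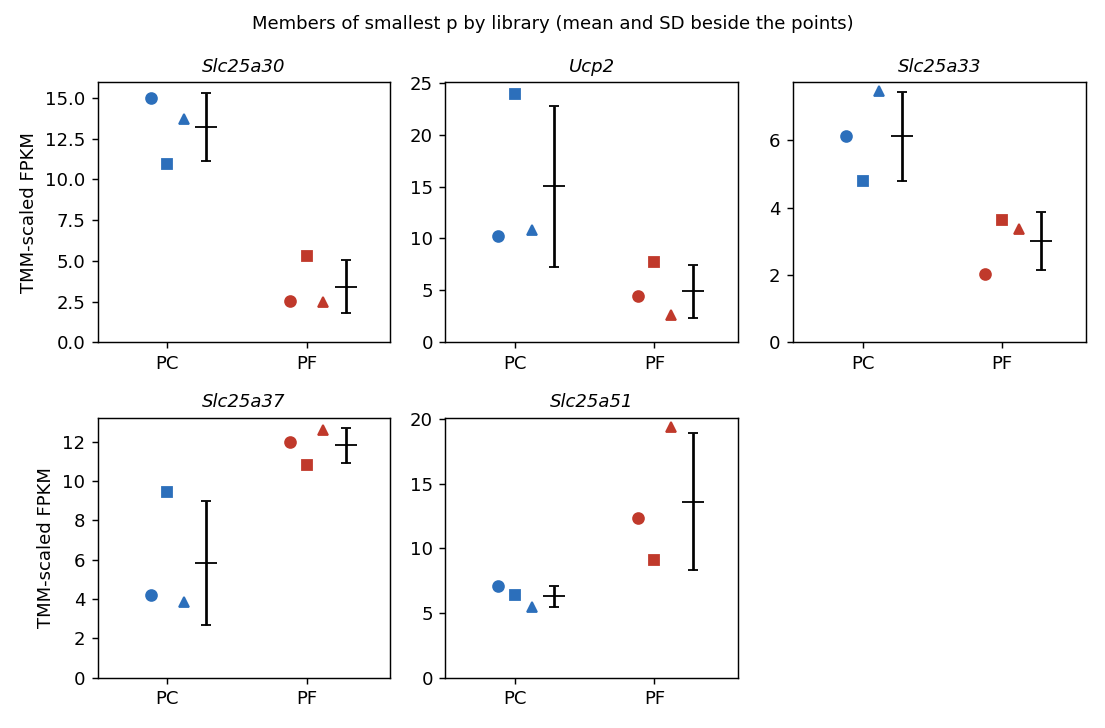
TMM-scaled FPKM (axes from 0) of 5 members with an unadjusted p under 0.05 in each liver, with mean and SD (n = 3) beside the points and the symbols of the libraries as in the plot of all carriers. The points of PF lie below those of PC for Slc25a30, Ucp2 and Slc25a33 and above them for Slc25a37 and Slc25a51, and PC2 (square) is the PC liver nearest to PF for Slc25a30, Slc25a33 and Slc25a37.

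RefSeq promoter windows of GRCm38.p6 were sought for the 6 members with an unadjusted p under 0.05, whatever their direction. They were at hand for 3, which happen to be the 3 with lower levels. For each, the 250 bases before the annotated start are shown. The sequences read 5′ to 3′ on the strand of the gene. Capitals mark GGGCGG (a GC box, bound by Sp1 and its relatives), CACGTG (an E-box, the core that ChREBP and other basic helix-loop-helix factors recognise) and CCAAT, on either strand.
Slc25a30, chr14:75787038-75787287, minus strand: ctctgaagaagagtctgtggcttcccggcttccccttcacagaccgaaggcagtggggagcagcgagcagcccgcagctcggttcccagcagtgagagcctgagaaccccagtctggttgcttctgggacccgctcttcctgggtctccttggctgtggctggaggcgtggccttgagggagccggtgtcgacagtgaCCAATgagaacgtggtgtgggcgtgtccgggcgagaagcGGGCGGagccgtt
Slc25a33, chr4:149774268-149774517, minus strand: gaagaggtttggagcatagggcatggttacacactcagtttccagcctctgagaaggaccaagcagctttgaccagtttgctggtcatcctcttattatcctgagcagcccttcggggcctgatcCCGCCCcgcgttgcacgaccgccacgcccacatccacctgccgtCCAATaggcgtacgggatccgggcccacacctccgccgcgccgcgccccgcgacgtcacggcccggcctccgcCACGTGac
Ucp2, chr7:100493108-100493357, plus strand: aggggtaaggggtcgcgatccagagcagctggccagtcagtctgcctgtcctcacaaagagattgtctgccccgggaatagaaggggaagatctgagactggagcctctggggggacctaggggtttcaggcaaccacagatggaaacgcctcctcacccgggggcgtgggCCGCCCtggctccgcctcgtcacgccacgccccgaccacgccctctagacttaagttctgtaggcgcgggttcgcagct

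Each of the 3 windows held 1 GC box. Slc25a30 and Slc25a33 each had 1 CCAAT, and Slc25a33 alone had an E-box. Across the family, 44 windows of 35 members could be searched. GGGCGG was in 65.9% of them, beside 42.6% of the windows of protein-coding genes and 32.7% of all windows. CACGTG was in 11.4% (Slc25a14, Slc25a31, Slc25a33 and Slc25a36), beside 6.63% and 6.02%. CCAAT was in 43.2%, beside 35.4% and 33.8%, and TATAAA in 4.55%, beside 11.6% and 12.4%. Several windows can belong to 1 gene, and a match is only a match of letters.

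Carriers of pyrimidine nucleotides and cofactors included members that went opposite ways. Slc25a33, which carries pyrimidine nucleotides needed for mitochondrial DNA and RNA, was at 2.03, 3.64 and 3.37 TMM-scaled FPKM in PF1, PF2 and PF3. It was at 6.13, 4.81 and 7.46 in PC1, PC2 and PC3. The groups did not overlap. The means of 3.01 ± 0.863 and 6.13 ± 1.33 differed 2.04-fold, with a log2 fold change of −1.03 and a standard error of 0.27. Adjusted over all tested genes, p was 0.176 with edgeR and 0.0295 with DESeq2. Its relative Slc25a36, of like substrates, lay below the level for testing and had its mean on the other side, at 0.922 ± 0.191 in PF and 0.585 ± 0.181 in PC. PF3 (0.717) and PC3 (0.718) were level for that gene, and in a fit without the filter its log2 fold change was 0.62 (edgeR adjusted p = 0.325).

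Slc25a51 brings NAD+ into the matrix. It was at 12.3, 9.12 and 19.4 TMM-scaled FPKM in PF1, PF2 and PF3. It was at 7.08, 6.37 and 5.46 in PC1, PC2 and PC3. All PF livers lay above all PC livers, and the spread was wider in PF, where PF3 was highest. The means of 13.6 ± 5.26 and 6.30 ± 0.813 differed 2.16-fold, with a log2 fold change of 1.11 and a standard error of 0.28. Adjusted over all tested genes, p was 0.167 with edgeR and 0.0137 with DESeq2. Without PF2 the log2 fold change was 1.33 and the edgeR adjusted p was 0.0291. Without PF3 it was 0.77 (edgeR adjusted p = 0.332), and the highest edgeR adjusted p was 0.519, without PC1.

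Other cofactor carriers overlapped between the groups. Slc25a32, a carrier of folate and FAD, was at 2.88, 3.68 and 4.60 TMM-scaled FPKM in PF1, PF2 and PF3. It was at 2.69, 3.33 and 2.70 in PC1, PC2 and PC3, so that PF1 lay inside the PC range (log2 fold change 0.36, edgeR adjusted p = 0.41). The coenzyme A carrier Slc25a42 was at 7.18 ± 1.02 and 7.72 ± 1.17. Slc25a16 was at 11.7 ± 0.772 and 11.5 ± 0.534. Slc25a26, which carries S-adenosylmethionine, was at 0.990 ± 0.166 and 1.04 ± 0.134 and overlaps Lrig1 on the opposite strand by 144 bases. The groups overlapped for Slc25a42, Slc25a16 and Slc25a26, and the lowest of their edgeR adjusted p-values was 0.798.

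Both mitoferrins, the iron carriers that feed heme and iron-sulfur cluster assembly, had higher means in PF. Slc25a37, the mitoferrin needed in erythroid cells, was at 12.01, 10.8 and 12.6 TMM-scaled FPKM in PF1, PF2 and PF3. It was at 4.23, 9.44 and 3.83 in PC1, PC2 and PC3. The PF livers were close to one another, whereas PC2 lay near PF and far from the other PC livers. The means of 11.8 ± 0.904 and 5.83 ± 3.13 differed 2.03-fold, with a log2 fold change of 1.02 and a standard error of 0.34. Adjusted over all tested genes, p was 0.214 with edgeR and 0.0714 with DESeq2. Without PC2 the log2 fold change was 1.55 (edgeR adjusted p = 0.0539). It was 0.83 without PC1 (edgeR unadjusted p = 0.0633, adjusted p = 0.572) and 0.79 without PC3 (edgeR unadjusted p = 0.0554, adjusted p = 0.493), so that the unadjusted p no longer passed 5%.

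Because Slc25a37 is needed in erythroid cells, erythroid genes were set beside it. The summed level of 8 erythroid markers was 83.8 to 263 TMM-scaled FPKM in PF and 59.2 to 303 in PC. By sign, all 5 that were tested were lower in PF (background 47.8%). The globin genes Hba-a1, Hba-a2, Hbb-bs and Hbb-bt overlapped between the groups, with log2 fold changes of −0.36 to −0.10 (edgeR adjusted p 0.802 to 0.965). Alas2, the erythroid enzyme that starts heme synthesis, had a log2 fold change of −1.40 (edgeR adjusted p = 0.174, DESeq2 adjusted p = 0.0107). The part of red cell precursors in the Slc25a37 values was not tested further. Of the 50-base stretches of Slc25a37 transcripts, 6.99% also occur in Gm16867.

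Slc25a28, the mitoferrin of other tissues, was at 6.81, 5.10 and 4.59 TMM-scaled FPKM in PF1, PF2 and PF3. It was at 4.42, 4.29 and 3.89 in PC1, PC2 and PC3. The groups were apart by a narrow margin, 4.59 against 4.42, and the difference was 1.31-fold (log2 fold change 0.39, standard error 0.18, edgeR adjusted p = 0.325, DESeq2 adjusted p = 0.41). The ratio of Slc25a28 to Slc25a37 within a library was 0.567, 0.471 and 0.364 in PF1, PF2 and PF3. It was 1.05, 0.454 and 1.02 in PC1, PC2 and PC3, so the ratio in PC2 fell inside the PF range (exact permutation p = 0.3, two-sided, adjusted p = 0.6 over 4 pairs).

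Adenine nucleotide carriers differed little between the groups, with 4 of 5 tested members higher and 1 lower by sign. Slc25a5 was at 175, 174 and 168 TMM-scaled FPKM in PF1, PF2 and PF3. It was at 159, 187 and 164 in PC1, PC2 and PC3, and the PF livers lay within the PC range (log2 fold change 0.02, standard error 0.16, edgeR adjusted p = 0.966). Its counts are uncertain, because 33.8% of the 50-base stretches of its transcripts also occur in transcripts of other genes, with the largest share in Gm5560. Slc25a4, the translocase of heart and muscle, was at 2.83 ± 0.595 and 2.59 ± 0.384. The ratio of Slc25a5 to Slc25a4 was 49.9 to 69.6 in PF and 54.3 to 81.2 in PC (exact permutation p = 0.7, two-sided, adjusted p = 0.7).

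Slc25a23, a calcium-sensitive carrier that swaps ATP-Mg for phosphate, was at 28.4, 29.0 and 36.5 TMM-scaled FPKM in PF1, PF2 and PF3. It was at 26.3, 26.1 and 27.1 in PC1, PC2 and PC3, and all PF livers were above all PC livers by a small margin (1.18-fold, edgeR adjusted p = 0.492). Slc25a25, of the same kind, was at 14.3 ± 3.54 and 15.8 ± 3.07. The ratio of Slc25a25 to Slc25a23 was 0.364 to 0.532 in PF and 0.497 to 0.703 in PC (exact permutation p = 0.2, two-sided, adjusted p = 0.6). Slc25a17, which sits in the peroxisomal membrane and carries coenzyme A, FAD and NAD+, was at 16.8 ± 2.80 and 15.4 ± 1.34. Slc25a24, another ATP-Mg carrier, was below the level for testing at 0.707 ± 0.0247 and 0.630 ± 0.166.

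All 4 carriers of phosphate and carboxylates had means that were slightly higher in PF, with a median log2 fold change of 0.12. Slc25a3, which supplies the phosphate for ATP synthesis, was at 45.0, 43.6 and 50.1 TMM-scaled FPKM in PF1, PF2 and PF3. It was at 42.1, 41.2 and 39.7 in PC1, PC2 and PC3. Each PF liver was above each PC liver, by 1.13-fold on average (standard error of the log2 fold change 0.15, edgeR adjusted p = 0.603).

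Slc25a11, the oxoglutarate carrier of the malate-aspartate shuttle, was at 25.4, 21.4 and 27.4 TMM-scaled FPKM in PF1, PF2 and PF3. It was at 22.3, 20.2 and 19.0 in PC1, PC2 and PC3, so PF2 lay within the PC range (log2 fold change 0.27, edgeR adjusted p = 0.404). Reads of Slc25a11 cannot be told apart from those of Rnf167 where the genes overlap by 245 bases on opposite strands, as no source used here says whether counting took strand into account. The dicarboxylate carrier Slc25a10 was at 20.5 ± 2.50 and 19.7 ± 5.21. Slc25a21, which carries oxodicarboxylates of lysine breakdown, was at 2.34 ± 0.559 and 2.22 ± 0.0680. The changes of these 4 stood at or under 1.21-fold.

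Among the carriers of amino acids, glutathione and choline, 4 of 6 tested members had lower means in PF, with a median log2 fold change of −0.11. Slc25a22, a glutamate carrier, was at 14.0, 14.8 and 14.2 TMM-scaled FPKM in PF1, PF2 and PF3. It was at 15.6, 26.2 and 15.4 in PC1, PC2 and PC3. The groups did not overlap, PC1 and PC3 were close to the PF livers, and PC2 stood apart (log2 fold change −0.41, standard error 0.23, edgeR adjusted p = 0.406). Without PC2 the log2 fold change was −0.11. Slc25a44, which brings branched-chain amino acids into mitochondria, was at 20.0, 23.7 and 24.4 in PF1, PF2 and PF3. It was at 18.5, 21.2 and 18.4 in PC1, PC2 and PC3, with PF1 inside the PC range (log2 fold change 0.23, edgeR adjusted p = 0.482).

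Slc25a39, needed for glutathione import, was at 54.1, 41.8 and 52.3 TMM-scaled FPKM in PF1, PF2 and PF3. It was at 46.1, 63.3 and 53.6 in PC1, PC2 and PC3, with wide overlap (log2 fold change −0.14, edgeR adjusted p = 0.753), and the sign turned when library totals replaced TMM factors. Its relative Slc25a40 was below the level for testing at 0.601 ± 0.0649 and 0.602 ± 0.0496. Slc25a38, a glycine carrier for heme synthesis, was at 4.78 ± 0.929 and 5.16 ± 0.363. The choline carrier Slc25a48 was at 2.23 ± 1.11 and 1.67 ± 0.413, with PF1 the highest library and PF2 the lowest. Slc25a12, the aspartate-glutamate carrier of excitable tissues, was at 1.06 ± 0.125 and 1.15 ± 0.378. All 4 of these overlapped between the groups.

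Of the carriers whose substrate is less settled or that sit in the outer membrane, Slc25a47 had the widest range. It was at 24.9, 77.6 and 72.0 TMM-scaled FPKM in PF1, PF2 and PF3. It was at 52.0, 69.3 and 48.6 in PC1, PC2 and PC3. The PF livers lay on either side of the PC range, with means of 58.2 ± 29.0 and 56.6 ± 11.1 (log2 fold change 0.04, standard error 0.40, edgeR adjusted p = 0.974), and the sign depended on which library was left out. Slc25a46, an outer membrane protein that takes part in fission, was at 5.40 ± 0.706 and 6.38 ± 1.13. Slc25a45 was at 9.70 ± 2.34 and 9.33 ± 0.898, and Slc25a34 at 1.69 ± 0.393 and 1.87 ± 0.514, both with overlap.

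The 16 members below the level for testing had between 0 and 180 counts per library. Of these, 8 had at most 6 counts in each library. Besides Ucp1 and Ucp3 they were the testis translocase Slc25a31, the ornithine carrier Slc25a2, the glutamate carrier Slc25a18, Slc25a41, Slc25a43 and Slc25a54. Slc25a54 had 0 counts in all 6 libraries, which allows up to 3 counts in each, and Slc25a41 had 1 count in PC2 alone. Reads of Slc25a18 overlap the far more abundant Atp6v1e1 on the opposite strand. The basic amino acid carrier Slc25a29 (0.506 ± 0.194 and 0.602 ± 0.133), Slc25a35 (0.331 ± 0.267 and 0.435 ± 0.116) and Slc25a53 (0.212 ± 0.0582 and 0.156 ± 0.0334) were detected weakly, with overlap between the groups.

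Several members lie next to one another, and neighbors differed widely in level. On GRCm39, Slc25a29 and Slc25a47 are separated by 162 bases on chromosome 12 (108791799 to 108801809 and 108801972 to 108822741), with means over the 6 libraries of 0.554 and 57.4 TMM-scaled FPKM. Ucp3 and Ucp2 lie 6904 bases apart on chromosome 7 (100122197 to 100135639 and 100142544 to 100151227), at 0.0295 and 9.97. Slc25a41 and Slc25a23 are 2056 bases apart on chromosome 17, at 0.00805 and 28.9, and Slc25a43 and Slc25a5 are 18448 bases apart on the X chromosome, at 0.0359 and 171. Slc25a54 and Slc25a24 on chromosome 3 were both low. Slc25a30 and Ucp2 are on different chromosomes, Slc25a30 on chromosome 14 from 75997557 to 76024477 on the minus strand and Ucp2 on chromosome 7. The annotated coding sequences were of like length, with 38 of 46 members between 850 and 1100 bases and a median of 954, whereas coding exons numbered from 1 to 18.

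The summed level of the family depended on the scaling. The sum of the deposited FPKM over the 46 members was 655, 566 and 719 in PF1, PF2 and PF3. It was 449, 562 and 479 in PC1, PC2 and PC3. Each PF value was above each PC value, PF2 and PC2 being close, and the difference was 1.30-fold (exact permutation p = 0.1, two-sided, the smallest that 3 against 3 libraries allow). With TMM scaling the sum was 539, 582 and 604 in PF and 535, 627 and 546 in PC, 1.01-fold apart and overlapping (exact permutation p = 0.9, two-sided). The shift on the deposited scale, 0.38 in log2, was close to the 0.39 of the median gene under library totals.

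**Figure D4:**
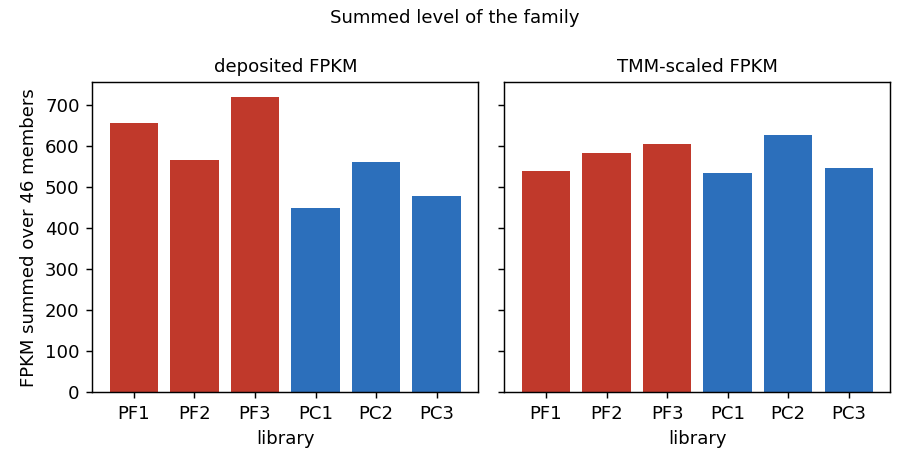
FPKM summed over the 46 members in each library, on the deposited scale (left) and after TMM scaling (right), with PF in red and PC in blue and bars from 0. The PF bars, 566 to 719, stand above the PC bars, 449 to 562, on the left, and the groups overlap on the right.

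Genes whose products work beside the carriers were described by their counts, to be read against the background of 9.13% higher and 7.9% lower at an unadjusted p under 0.05. Of the 4 carriers left out of the family, 0 had an unadjusted p under 0.05, with Slc25a1, the citrate carrier, at 59.5 ± 6.23 TMM-scaled FPKM in PF and 54.2 ± 11.0 in PC and Slc25a13 at 33.2 ± 3.93 and 35.5 ± 0.833. Among 17 tested genes of other mitochondrial transporters and carrier-like proteins, most of them of the inner membrane, 2 were higher and 2 lower at that level. Sfxn1, a serine transporter, was at 8.32 ± 1.82 and 4.29 ± 0.641 (log2 fold change 0.96, edgeR adjusted p = 0.147, DESeq2 adjusted p = 0.00557). Sfxn5 was at 1.84 ± 0.734 and 0.803 ± 0.253, with overlapping groups (edgeR adjusted p = 0.194, DESeq2 adjusted p = 0.0463). Micu2, a gatekeeper of the calcium uniporter, was at 12.04 ± 1.82 and 19.3 ± 1.36 (log2 fold change −0.68, edgeR adjusted p = 0.157, DESeq2 adjusted p = 0.0111), and Mtch1, an outer membrane relative of the carriers, was at 7.03 ± 0.608 and 9.42 ± 1.34 (DESeq2 adjusted p = 0.204).

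The import machinery that inserts carriers into the membrane had 15 tested genes, of which 6 had higher and 9 lower means in PF and 0 passed an unadjusted p under 0.05, with a median log2 fold change of −0.02. Timm22, the channel of that route, was at 2.90 ± 0.352 and 2.90 ± 0.159. The porins and Tspo of the outer membrane (4 tested) had a median of 0.14, with Vdac1 at 75.1 ± 2.94 and 73.2 ± 4.30. Among 11 tested regulators of mitochondrial biogenesis, 2 were higher (Ppargc1a and Esrra) and 1 was lower (Tfb1m) at an unadjusted p under 0.05, and DESeq2 called 0. Ppargc1a, a coactivator that drives mitochondrial genes, was at 1.71 ± 1.17 and 0.796 ± 0.166, and Esrra, a nuclear receptor that works with it, at 5.87 ± 0.770 and 3.98 ± 1.21, both with overlapping groups. Tfb1m, which modifies mitochondrial ribosomal RNA, was at 1.54 ± 0.163 and 2.42 ± 0.727, with no overlap.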

How the data were processed

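Liver poly(A) RNA of pregnant mice was used, in 6 libraries, with groups taken from the sample titles. The authors deposited 1 table that holds, per the file headers, a whole-number count and an FPKM value for each gene and library on GRCm39. According to the submitters' notes, HTSeq 0.6.1, DESeq2, HISAT2 2.2.1 and cutadapt 1.9.1 were used, with no role given. For the annotation release and the strand setting, the answer is not given in the sources used here. The deposited FPKM values equal count over exonic length and library total within 0.005.

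Symbols were matched by Ensembl identifier (52073 of 56691 genes), and GENCODE M21 gave protein-coding status and coding length. The 10756 genes that averaged 1 FPKM or more were tested with edgeR 4.0.16 (R 4.3.3) by the quasi-likelihood F test, two-sided, with TMM factors and Benjamini-Hochberg adjustment over all of them. Standard errors are the log2 fold change over the square root of F. DESeq2 1.42.0 and limma 3.58.1 with a trend on log2(FPKM + 1) of the deposited values, without TMM factors, were alternatives. Single values were compared by exact permutation. The members, role groups and gene lists were chosen with earlier results of these data known. Values in every library are given for the 12 tested members of smallest p, the 6 of highest level and the uncoupling branch, apart from 1 member that enters the counts and medians and is not reported here. No pair of libraries of a group agreed within sampling noise (chi-square per gene 22.2 to 174). This value is a mean over genes without TMM factors, so it does not show how far depth limited the members with few counts.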

Additional observations from a re-analysis of the deposited data

How the results depend on the processing

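Alternatives were applied to the counts of members and to 16 named members. Of 240 log2 fold changes under 15 settings, 214 kept their direction and their side of 5%, 14 newly passed 5% and 12 changed sign. Members with an adjusted p under 0.05 numbered 0 with edgeR and TMM factors. They numbered 5 of 30 with DESeq2 (16.7%, beside 4.58% of all tested genes), 5 without the filter (16.7%, beside 1.98% of 28042 genes), 2 with library totals (6.67%, beside 2.29%) and 0 to 2 with 1 library left out, the 2 being without PF2 (6.67%, beside 3.75%). Members higher in PF at an unadjusted p under 0.05 numbered 3, against 11 (36.7%) with library totals, with limma on log2(FPKM + 1) and with limma on log2(FPKM + 0.1), where 31.8%, 29% and 29.2% of all tested genes were higher. They numbered 2 to 5 with 1 library left out, the 5 being without PF2 (16.7%, beside 9.14%). The sign changed for Slc25a5 without the filter (−0.011) and with filterByExpr (−0.0061), and its range with 1 library left out was −0.025 to 0.091. Slc25a47 was at −0.10 with the replicate block and ranged from −0.23 to 0.40 with 1 library left out. Slc25a39 was at 0.23 with limma on either pseudocount and at 0.25 with library totals. The log2 difference of the Slc25a5 to Slc25a4 ratio ranged from −0.23 to 0.063. The cause of these changes of sign was not tested. With the replicate number as a block, 0 members passed 5% (beside 0% of all tested genes). At an unadjusted p under 0.05, 4 instead of 3 were higher (13.3%, beside 9.99%). Same-numbered libraries correlated at −0.141, 0.245 and 0.0863 in their deviations, and not every library correlated best with its own number. The deviations were taken within groups of 3, so they cannot decide whether same-numbered libraries share a batch. No label says so. With 3 libraries a group, exact permutation cannot go below 0.1. Of the 16 members of low level, Slc25a54 had no count to fit.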
